A study of Solanum lycopersicum with 24 samples.

Results

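Transcripts were compared between CHI9 and CHI4, complemented line #9 and complemented line #4 of the tomato af mutant, in gland cells from type VI trichomes of the leaf. The libraries were taken by the genotype in their labels and their lanes were summed, which gave 8 of the 12 libraries of the series, 4 of CHI9 and 4 of CHI4. The other 4 libraries, from the af mutant itself, share the fit and are given beside the lines. CHI9, CHI4 and af plants stood in soil in a growth chamber at 28 °C and 250 µE for 5 weeks, and gland cells of the 3 genotypes were taken at the same 4 sampling times, called collections 1 to 4 here. The sources used here do not state the construct, its promoter, where or in how many copies it sits in each line, or the number of plants per collection. Each line is 1 line number, so a difference is one between these lines.

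Type VI trichomes are short-stalked hairs whose head cells make and store monoterpenes, sesquiterpenes and flavonols. Chalcone isomerase (CHI) turns chalcone into flavanone, an early step towards flavonols. From general knowledge, af, or anthocyanin free, lacks a working chalcone isomerase and a complemented line carries the gene again. Gene names come from locus numbers and general knowledge, since the files pair no number with a name.

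The libraries held 39.3, 8.99, 37.7 and 46.1 M counts in CHI9, 36.3, 34.0, 52.0 and 46.5 M in CHI4 and 20.9 to 70.9 M in af. Levels are in counts per M (CPM). Where a library has 0 counts of a gene, up to 0.0577 CPM would be allowed by counting error in the deepest line library and up to 0.334 CPM in CHI9 replicate 2, the shallowest. These bounds use raw library totals, while the gene levels below are TMM-scaled. On principal components of log2 CPM over the 8 line libraries, CHI9 replicate 2 stood apart on the first (27.4% of the variance), CHI9 replicate 1 on the second (23.6%) and CHI4 replicate 2 on the third (19.3%). The remaining line libraries lay together on these components whatever their line. Each count of calls is therefore also given without these 3 libraries. The lanes of CHI4 replicate 4 differed more than those of any other line library, and lane 2 alone was used for it as a check.

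Distances between the lines overlapped those between libraries of a line. Over 9388 genes that averaged 10 CPM or more, the SD of the log2 difference between a CHI9 and a CHI4 library was 0.308 to 0.581 (median 0.509, 16 pairs). Between libraries of CHI9 it was 0.416 to 0.584 (median 0.563, 6 pairs), and between libraries of CHI4 it was 0.364 to 0.469 (median 0.428, 6 pairs). The smallest of these distances, 0.308, lay between a CHI9 and a CHI4 library of the same collection. Pairs within a line always come from different collections. Between the lines, the 12 pairs from different collections had 0.387 to 0.581 (median 0.516). The 12 pairs within a line had 0.364 to 0.584 (median 0.466).

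CHI1 (Solyc05g010320) is the chalcone isomerase gene that the lines are taken to carry back. Its transcript had 529.9, 701, 718 and 791 CPM in CHI9, against 418, 1168, 726 and 1014 CPM in CHI4, and 211, 252, 339.9 and 239 CPM in af. Every line library lay above every af library, so at this gene no line library looked like af or the reverse. The ranges of CHI9 and CHI4 overlapped, so CHI1 cannot check the labels of CHI9 and CHI4 against each other. The log2 difference, CHI9 minus CHI4, was -0.28 (SE 0.246, 95% interval -0.80 to 0.24, edgeR adjusted p = 0.926), and a two-sided exact permutation test over the 8 line libraries gave p = 0.429, where the smallest possible value is 0.0286. CHI9 was lower in 3 of 4 collections, and the difference was 0.04 without the 3 libraries that stood apart. Counts of the native gene and of an introduced copy cannot be told apart in these tables.

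Across all genes, few transcripts separated the lines. Of 18326 genes tested, 11 were higher and 6 were lower in CHI9 at an adjusted p under 0.05 (edgeR's quasi-likelihood test, Benjamini-Hochberg), which is 0.06% and 0.0327% of the genes tested. Of these, 8 and 5 differed by at least 2-fold. For each of the 17 genes, every CHI9 library lay on the same side of every CHI4 library. That alone fixes the same direction in all 4 collections, and the genes were picked by a test on these same libraries. Among all tested genes, every CHI9 library lay above every CHI4 library in 1.36% and below in 1.72%. The median log2 difference over all genes was 0.01.

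The count of calls depended on how the collections were treated. A block for the collection gave 20 higher and 16 lower genes (0.109% and 0.0873% of genes tested), with 15 of the 17 among them. DESeq2 called 50 higher and 46 lower (0.466% of 20600 genes), including all 17. Without CHI9 replicates 1 and 2 and CHI4 replicate 2, 8 were higher and 4 lower, and 7 of the 17 were among these 12. With lane 2 alone for CHI4 replicate 4, 10 were higher and 6 lower. Leaving out 1 line library at a time gave 9 to 15 calls, with 9 without CHI4 replicate 1, 10 without CHI9 replicate 3, CHI9 replicate 4 or CHI4 replicate 3, and 11 without CHI9 replicate 1.

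The intervals show how large a difference in a single gene the data allow. The 95% interval of the log2 difference lay within 2-fold in both directions for 8697 of the 9388 genes with at least 10 CPM (92.6%), and for 10225 of all 18326 (55.8%). For genes below 10 CPM, differences of 2-fold were therefore often not resolved at this depth and number of libraries. The intervals are not adjusted for the number of genes, while the calls are. A gene above 10 CPM could thus differ 2-fold and not be called. Examples without the block are Solyc02g070630 (2.44-fold, edgeR adjusted p = 0.0569) and Solyc10g007090 (3.44-fold, edgeR adjusted p = 0.326). A missing call alone does not place a gene within 2-fold.

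**Figure D1:**
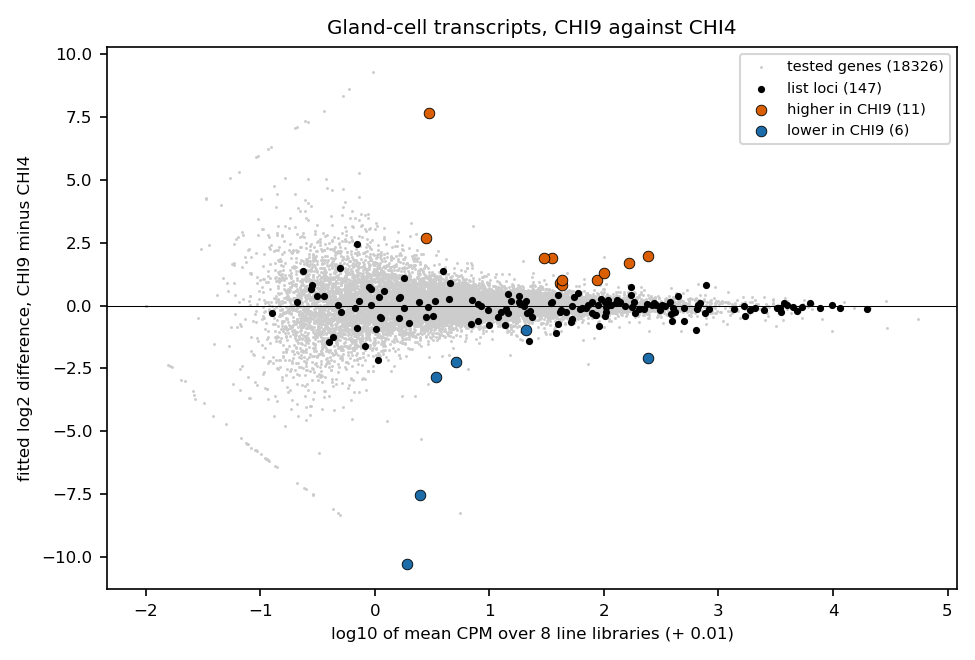
Mean level of each tested gene over the 8 line libraries (log10 of CPM) against the fitted log2 difference, CHI9 minus CHI4. Grey points are the 18326 tested genes, black points the 147 tested loci of the gene lists, and coloured points the 11 genes higher and 6 lower in CHI9; the list loci lie along 0 where the level is high and spread where it is low.

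Genes of the pathways of this gland, of stress responses and of other leaf cells were looked up in 23 lists of 177 loci, of which 175 were in the files and 147 passed the filter on low counts. Of the 147, 0 were higher and 0 lower in CHI9 by edgeR. The smallest adjusted p was 0.282. An unadjusted p under 0.05 was reached by 15 (10.2%, against 6.16% of all genes). With the block 1 of the 147 was called, DESeq2 called 2 and limma-voom 0, and without the 3 libraries that stood apart edgeR called 0. Every CHI9 library lay above every CHI4 library at 3 loci (2.04%, beside 1.36% of all genes) and below at 7 (4.76%, beside 1.72%). The 3 are CAT1, HSFA3 and an ASR locus, and the 7 are TPS17, ASAT3, IPMS3, GAME17, CAT3, HSP21 and the SOD locus Solyc06g049080. The list loci had a median level of 53.0 CPM, against 10.7 CPM over all tested genes, so the shares are not like for like. Their median log2 difference was -0.05, beside 0.01 over all genes. Of the 100 list loci with at least 10 CPM, 81 had a 95% interval within 2-fold.

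The flavonoid list had 12 tested loci, and 0 passed the test. The chalcone synthases, which make the substrate of chalcone isomerase, are CHS1 (Solyc09g091510) and CHS2 (Solyc05g053550). CHS1 had 3058, 4121, 5428 and 5212 CPM in CHI9, against 3835, 5164, 5740.4 and 5955 CPM in CHI4. CHS2 had 2241, 3282, 3571 and 3845 CPM in CHI9, against 2673, 4617, 3712 and 4438 CPM in CHI4. For both, CHI9 was below CHI4 in all 4 collections, but the ranges overlapped. The fitted difference on the log2 scale was -0.22 for CHS1 (95% interval -0.65 to 0.22) and -0.25 for CHS2 (-0.67 to 0.16), with edgeR adjusted p = 0.936 and 0.921. Without the 3 libraries that stood apart both were 0.01.

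Flavanone 3-hydroxylase (F3H), the next enzyme, had 1375 to 2623 CPM in CHI9, against 1744 to 2615 CPM in CHI4. Flavonol synthase (FLS), which makes flavonols, had 1405 to 3274 CPM in CHI9, against 1905 to 3442 CPM in CHI4. In both genes the ranges of the lines overlapped over most of their length. An anthocyanin rhamnosyltransferase (Solyc09g059170), which adds a sugar, had 2625 to 3576 CPM in CHI9, against 3029 to 3675 CPM in CHI4. Of the 12 loci, 11 had a log2 difference below 0 (median -0.18), and 9 of the 9 with at least 10 CPM had an interval within 2-fold. The whole list took 1.29%, 1.74%, 2.08% and 2.02% of the counts in CHI9, against 1.47%, 2.22%, 2.10% and 2.06% in CHI4 and 1.82% to 2.46% in af.

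Of the flavonoid regulators 5 of 9 loci were tested and 0 called. MYB12 (Solyc01g079620), an activator of flavonol genes, had 70.4, 78.1, 57.6 and 89.3 CPM in CHI9, against 69.2, 141, 62.4 and 109 CPM in CHI4, and 198, 180.3, 137 and 160.2 CPM in af. CHI4 replicates 2 and 4 were the highest line libraries, and the lines overlapped (log2 difference -0.37, 95% interval -0.83 to 0.09, edgeR adjusted p = 0.885). In the phenylpropanoid entry list 8 loci were tested and 0 called. Phenylalanine ammonia-lyase (PAL, Solyc09g007910), which opens the pathway, had 374, 431, 224 and 559 CPM in CHI9, against 346, 833, 382 and 853 CPM in CHI4. Here too CHI4 replicates 2 and 4 held the highest values. The interval of PAL, -1.29 to 0.08, takes in a 2-fold lower level.

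**Figure D2:**
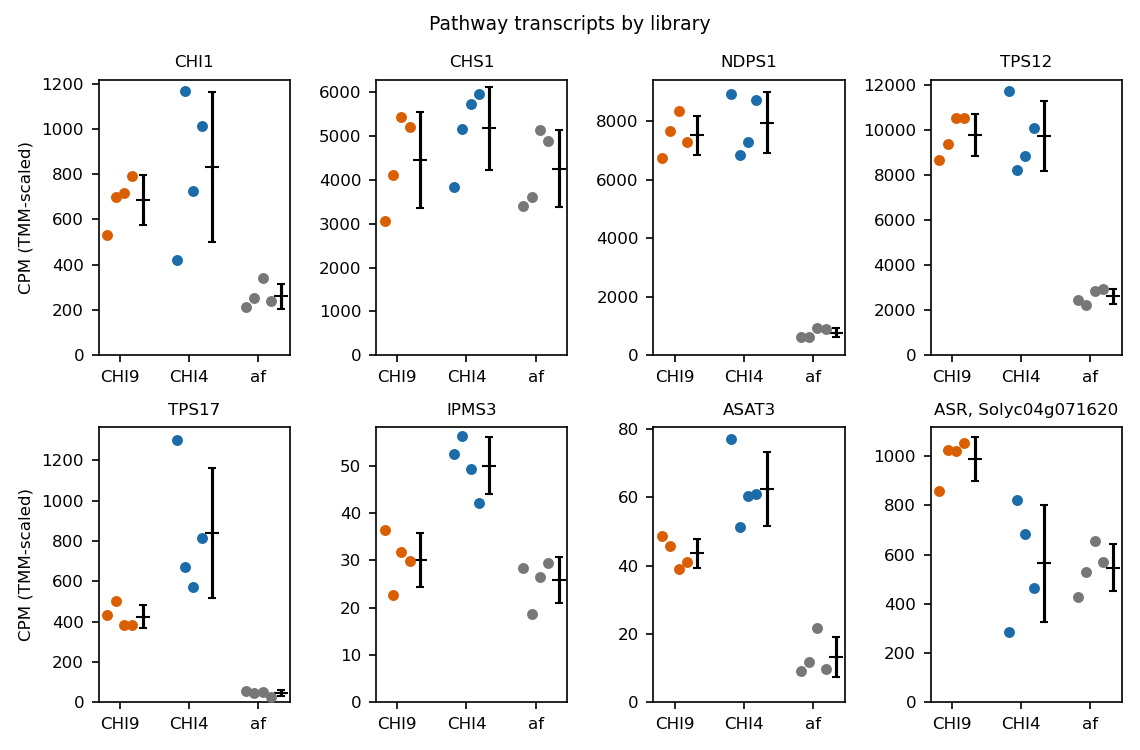
CPM (TMM-scaled, linear axes from 0) of 8 pathway genes in the 4 libraries of CHI9, CHI4 and af, with the mean and SD of each group as a bar beside the points. CHI9 and CHI4 overlap for CHI1, CHS1, NDPS1 and TPS12 and do not overlap for TPS17, IPMS3, ASAT3 and the ASR locus, none of which was called by edgeR without the block.

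Genes of the plastid methylerythritol phosphate (MEP) pathway, which supplies the precursors of monoterpenes, differed little between the lines. All 8 loci were tested, 0 were called, their log2 differences ran from -0.11 to 0.13, and all 8 intervals lay within 2-fold. HDR (Solyc01g109300) catalyses the final step and had 3702, 3889.9, 5237 and 4707 CPM in CHI9, against 4481, 4098, 4591 and 4956 CPM in CHI4. DXS2 (Solyc11g010850), a first enzyme of the pathway, had 2761, 3198, 5033 and 4872 CPM in CHI9, against 3914, 2738, 4828 and 4305 CPM in CHI4. HDS (Solyc11g069380), the enzyme before HDR, had 2627, 2979.9, 3636 and 3934 CPM in CHI9, against 3355, 2925, 3381 and 4523 CPM in CHI4. The 3 genes overlapped between lines throughout, and all 3 were lower in every af library, at 1307 to 1584 CPM for HDR, 1346 to 2471 CPM for DXS2 and 1323 to 1711 CPM for HDS. The list took 1.13% to 1.57% of the counts in CHI9, 1.14% to 1.46% in CHI4 and 0.685% to 0.749% in af.

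Prenyl diphosphate synthases join these precursors. NDPS1 (Solyc08g005680), which makes the neryl diphosphate used for the monoterpenes of this gland, had 6766, 7677, 8344 and 7293 CPM in CHI9, against 8938, 6846, 7309 and 8746 CPM in CHI4, and 635, 626, 924 and 886 CPM in af. Its log2 difference was -0.08 (95% interval -0.45 to 0.29, edgeR adjusted p = 0.976). IDI (Solyc04g056390), the isopentenyl diphosphate isomerase, had 5838, 5386, 4923 and 4853 CPM in CHI9, against 5474, 5535, 5211 and 5839 CPM in CHI4. GGPPS2 (Solyc04g079960), a geranylgeranyl diphosphate synthase, had 67.8, 83.8, 97.8 and 100.2 CPM in CHI9, against 111, 99.8, 102 and 149 CPM in CHI4. Only GGPPS2 among the 4 tested loci had an unadjusted p under 0.05, was lower in CHI9 in all 4 collections and did not pass the threshold (log2 difference -0.40, edgeR adjusted p = 0.717). In the mevalonate and squalene list 6 loci were tested, 0 called, and all 6 intervals lay within 2-fold. Squalene synthase (SQS, Solyc01g110290) had 245 to 315 CPM in CHI9, against 248 to 318 CPM in CHI4.

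Terpene synthases turn the prenyl diphosphates into the terpenes of the gland. Of 11 tested loci 0 were called by edgeR. TPS12 (Solyc06g059930), a sesquiterpene synthase, had 8664, 9376, 10539.8 and 10531 CPM in CHI9, against 11730.3, 8212, 8829.5 and 10098 CPM in CHI4, and 2459, 2236, 2862 and 2926 CPM in af. The locus of TPS19 and TPS20 (Solyc08g005670), monoterpene synthases of near-identical sequence that this counting cannot split, had 3522, 4576, 4366 and 2959 CPM in CHI9, against 4293, 3137, 3582 and 3504 CPM in CHI4, and 540.3, 378, 725 and 525 CPM in af. CHI9 and CHI4 overlapped at both loci, and each line library lay above every af library. Their log2 differences were 0.01 for TPS12 (95% interval -0.34 to 0.36) and 0.09 for the TPS19 and TPS20 locus (-0.32 to 0.50). The list took 1.37%, 1.49%, 1.52% and 1.48% of the counts in CHI9, against 1.65%, 1.24%, 1.26% and 1.38% in CHI4 and 0.398% to 0.498% in af.

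TPS17 (Solyc12g006570), a sesquiterpene synthase, had the largest log2 difference in size among the tested terpene synthases. It had 433, 501, 385 and 383 CPM in CHI9, against 1299.7, 669.6, 574 and 813 CPM in CHI4, and 57.8, 47.2, 51.3 and 26.3 CPM in af. Every CHI9 library lay below every CHI4 library, as for 1.72% of all genes. CHI4 replicate 1 held the highest value, and CHI9 lay between af and CHI4. The log2 difference was -0.98 (SE 0.246, 95% interval -1.50 to -0.46). It did not pass edgeR's test (adjusted p = 0.294, and 0.116 with the block) and passed that of DESeq2 (adjusted p = 0.0303).

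Markers of the type VI gland were high in both lines, as shown for NDPS1, TPS12 and the TPS19 and TPS20 locus. MYC1 (Solyc08g005050), a regulator of type VI gland formation and terpene genes, had 700.3, 741, 639 and 749 CPM in CHI9, against 641, 719.5, 589 and 693 CPM in CHI4, and 583 to 794 CPM in af. EOT1 (Solyc02g062400), an activator of a terpene synthase promoter, had 114, 122, 87.2 and 106 CPM in CHI9, against 89.6, 119, 84.9 and 99.3 CPM in CHI4. Both were higher in CHI9 in all 4 collections, by 0.10 and 0.13 on the log2 scale, with overlapping ranges and edgeR adjusted p = 0.958 and 0.951. The MIXTA-like locus (Solyc02g088190), a relative of regulators of epidermal cell shape, had 0.374 to 2.95 CPM in CHI9, against 0.383 to 4.23 CPM in CHI4. Hair (Solyc10g078970), a zinc-finger regulator of other trichomes, had 0 counts in all 12 libraries. Woolly (Solyc02g080260), a homeodomain regulator of trichome formation, was low, with 0.103, 0.354, 0.668 and 0.468 CPM in CHI9, against 1.12, 0.555, 1.89 and 1.35 CPM in CHI4, and 3.06, 1.84, 2.28 and 2.35 CPM in af. CHI9 was below CHI4 in all 4 collections with overlapping ranges, and Woolly did not pass (log2 difference -1.61, 95% interval -3.05 to -0.18, edgeR adjusted p = 0.767). Of the trichome regulators 4 were tested and 0 called. In these bulk samples, fewer cells of a type and less RNA per cell cannot be told apart.

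Acylsugar genes, which are active in the tip cells of other glandular trichomes, serve as markers of those cells. IPMS3 (Solyc08g014230), which extends the carbon chain for the acyl groups, had 36.4, 22.7, 31.8 and 29.8 CPM in CHI9, against 52.5, 56.2, 49.2 and 42.1 CPM in CHI4. ASAT3 (Solyc11g067270), an acylsugar acyltransferase, had 48.5, 45.8, 39.2 and 41.1 CPM in CHI9, against 77.01, 51.3, 60.3 and 61.1 CPM in CHI4. For both genes every CHI9 library lay below every CHI4 library, a pattern that 1.72% of all genes showed. CHI9 minus CHI4 was -0.72 on the log2 scale for IPMS3 (95% interval -1.10 to -0.35, edgeR adjusted p = 0.282, DESeq2 adjusted p = 0.0449) and -0.52 for ASAT3 (-0.98 to -0.05, edgeR adjusted p = 0.772). The other 3 loci of the list were low in both lines: ASAT2 (Solyc04g012020) had 1.06 to 2.95 CPM in CHI9, against 0.861 to 3.15 CPM in CHI4, ASAT4 0.154 to 1.03 CPM in CHI9, against 0.300 to 0.765 CPM in CHI4, and ASAT1 0.0936 to 0.729 CPM in CHI9, against 0.0617 to 0.191 CPM in CHI4. The 5 loci together took 0.00645% to 0.00857% of the counts in CHI9, 0.00919% to 0.0113% in CHI4 and 0.00404% to 0.00530% in af. Of 4 tested loci 0 were called by edgeR. The part of other trichome types in any difference between the lines was not tested.

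Green leaf volatiles come from a lipoxygenase and a lyase. TomLoxC (Solyc01g006540), the lipoxygenase, had 16129, 16579.9, 21109 and 21578 CPM in CHI9, against 23526, 17853, 20956 and 20012 CPM in CHI4. HPL (Solyc07g049690), the hydroperoxide lyase, had 11995, 12235, 11230.5 and 8687 CPM in CHI9, against 12529.7, 11878, 12641 and 10314 CPM in CHI4. ADH2 (Solyc06g059740), an alcohol dehydrogenase, varied within both lines, at 15.3 to 95.2 CPM in CHI9, against 40.4 to 101 CPM in CHI4. The 3 loci overlapped between the lines and 0 were called. They took 2.72% to 2.83% of the counts in CHI9, 2.61% to 3.12% in CHI4 and 1.10% to 1.44% in af.

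Of the defence loci tested 0 were called. The polyphenol oxidase PPO (Solyc08g074620), which oxidises phenolics, had 6413, 6549, 7794 and 5672 CPM in CHI9, against 5925, 5890.4, 6206 and 6364 CPM in CHI4. The proteinase inhibitor PI-I (Solyc09g084480), a wound-response gene, had 52.2 to 115 CPM in CHI9, against 38.2 to 100.3 CPM in CHI4. The jasmonate receptor COI1 (Solyc05g052620) had 165 to 238 CPM in CHI9, against 167 to 185 CPM in CHI4. The lines overlapped in each, and the tested loci numbered 2 for polyphenol oxidases, 5 for wound response and 10 for jasmonate. Only 1 of the 5 wound and 4 of the 10 jasmonate loci had an interval within 2-fold, so 2-fold differences were mostly not resolved. Of the 5 wound loci 4 had a log2 difference below 0 and 1 above. Those below included the PI-I loci Solyc09g084490 (-0.77, interval -1.43 to -0.11, edgeR adjusted p = 0.742) and Solyc09g084470 (-0.62, interval -1.44 to 0.20). GAME12 (Solyc12g006470), a transaminase of glycoalkaloid synthesis, had 79.3 to 115 CPM in CHI9, against 96.6 to 134 CPM in CHI4, and of 5 glycoalkaloid loci 0 were called. The carotenoid cleavage dioxygenase CCD1B (Solyc01g087260) had 1080.4 to 1626 CPM in CHI9, against 1175 to 1756 CPM in CHI4, was lower in CHI9 in all 4 collections with overlapping ranges, and of 10 carotenoid loci 0 were called.

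Markers of green leaf cells and of epidermis gave 0 calls. The Rubisco small subunit gene RBCS (Solyc03g034220) had 291, 252, 258 and 254 CPM in CHI9, against 251, 248, 252 and 294 CPM in CHI4. The light-harvesting gene CAB (Solyc02g070940) had 287, 339.7, 323 and 409 CPM in CHI9, against 261, 342, 329.7 and 457 CPM in CHI4. The lines overlapped in both. The 3 RBCS loci took 0.0324% to 0.0389% of the counts in CHI9 and 0.0307% to 0.0363% in CHI4, and the CAB loci, 7 of them tested, 0.0568% to 0.0663% in CHI9 and 0.0527% to 0.0624% in CHI4. CER6 (Solyc02g085870), a wax synthesis gene of the epidermis, had 61.4, 55.7, 61.3 and 65.4 CPM in CHI9, against 42.2, 66.6, 41.1 and 40.5 CPM in CHI4. CHI4 replicate 2 lay above the other CHI4 libraries and above every CHI9 library, and the difference did not pass (log2 difference 0.36, edgeR adjusted p = 0.799). Of 4 cutin and wax loci 0 were called, and the list took 0.00865% to 0.0106% of the counts in CHI9 and 0.00635% to 0.0111% in CHI4.

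A mitochondrial small heat shock protein (Solyc08g078700) had 44.6, 62.4, 10.3 and 42.2 CPM in CHI9, against 35.1, 83.8, 18.9 and 113 CPM in CHI4. For this locus collection 3 held the lowest value in both lines. Of 10 heat shock loci 0 were called. Their log2 difference was below 0 in 8 and above 0 in 2, with a median of -0.57, beside 0.01 over all genes. Only 2 of the 10 had an interval within 2-fold, so 2-fold differences were mostly not resolved. The superoxide dismutase SOD (Solyc01g067740) had 607 to 701 CPM in CHI9, against 566 to 795 CPM in CHI4. Catalase CAT3 (Solyc04g082460), which removes hydrogen peroxide, had 336, 327, 341 and 346 CPM in CHI9, against 428, 402, 459.7 and 430.2 CPM in CHI4. CAT3 did not overlap between the lines, with a log2 difference of -0.35 (95% interval -0.62 to -0.08, edgeR adjusted p = 0.684), and was chosen after its values were seen. Of 9 loci of reactive oxygen removal 0 were called. The sucrose synthase SUS3 (Solyc07g042550) had 694 to 935 CPM in CHI9, against 649.5 to 1088 CPM in CHI4, and the clock gene GI (Solyc04g071990) had 75.1 to 137 CPM in CHI9, against 66.9 to 95.5 CPM in CHI4. Of 7 sucrose and 4 clock loci 0 were called.

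The ASR loci, named for abscisic acid, stress and ripening and known to rise with drought, held the list locus that was called with the block. Solyc04g071620 had 856, 1024, 1020.5 and 1051 CPM in CHI9, against 285, 819, 685 and 466 CPM in CHI4, and 426, 530.0, 657 and 571 CPM in af. Every CHI9 library lay above every CHI4 library, as for 1.36% of all genes, and CHI4 replicate 1 was lowest. The log2 difference was 0.81 (SE 0.240, 95% interval 0.31 to 1.31), with an edgeR adjusted p of 0.473 without the block and 0.0346 with it, and a DESeq2 adjusted p of 0.133. Its neighbour Solyc04g071610 had 325, 240.4, 178 and 125 CPM in CHI9, against 129, 158, 119 and 118 CPM in CHI4. It was higher in CHI9 in all 4 collections, the ranges overlapped, and it did not pass (log2 difference 0.73, edgeR adjusted p = 0.473). Of the 6 loci of the list, all tested, 3 had a log2 difference above 0 and 3 below. The third above 0 was the ASR locus Solyc04g071590 (0.73), and those below 0 were the ASR locus Solyc04g071580 (-0.42), the dehydrin TAS14 (Solyc02g084850, -0.70) and NCED1 (Solyc07g056570, -0.29), an enzyme of abscisic acid synthesis. None of these 4 was called, and all 6 intervals reached beyond 2-fold. The list took 0.118%, 0.119%, 0.105% and 0.109% of the counts in CHI9, against 0.0363%, 0.0945%, 0.0692% and 0.0504% in CHI4 and 0.0644% to 0.0804% in af, and most of these counts came from Solyc04g071620 and Solyc04g071610.

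**Figure D3:**
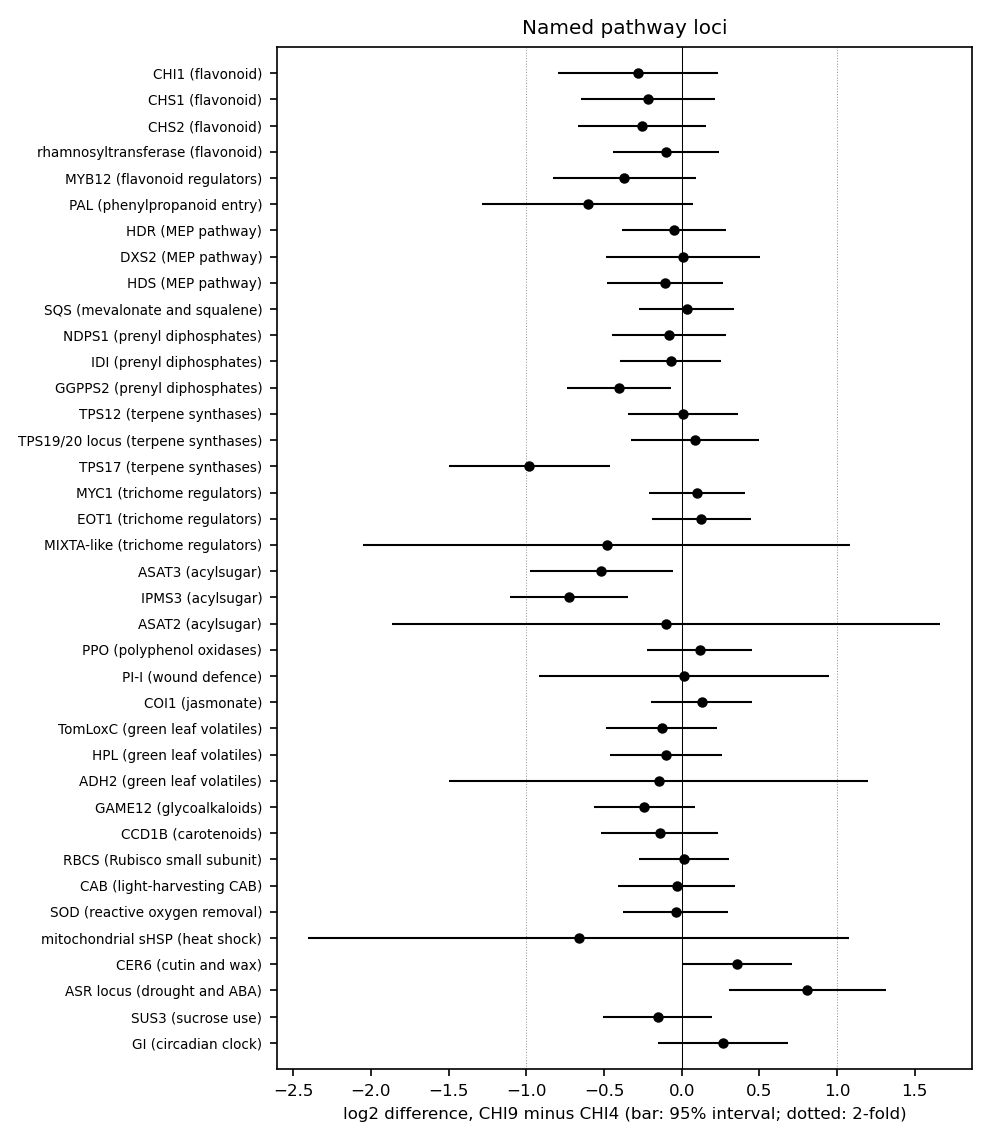
Log2 difference, CHI9 minus CHI4, of the named pathway loci with its 95% interval, by list, with dotted lines at a 2-fold difference. The MEP loci and NDPS1, IDI, TPS12, TomLoxC and HPL have narrow intervals around 0. The intervals of TPS17, IPMS3, GGPPS2 and ASAT3 lie wholly below 0, and those of the ASR locus and CER6 wholly above. None of these loci was called without the block. Low or variable loci such as ASAT2 and the mitochondrial sHSP have intervals wider than 2-fold.

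The genes that were called carry no name in the sources used here, and 0 of the 17 belonged to a list. Of the 10 genes called higher with at least 0.5 CPM in each line, the fold was 1.78 to 6.39, and of the 4 called lower it was 1.97 to 7.16. The 2 largest rises and the 2 largest falls among those with at least 5 CPM follow. Solyc02g070590 on chromosome 2 had 427, 429, 379 and 310.2 CPM in CHI9, against 123, 87.2, 88.9 and 91.9 CPM in CHI4, and 56.97, 18.3, 34.1 and 15.8 CPM in af. It was 3.96-fold higher in CHI9 (log2 difference 1.98, SE 0.331, edgeR adjusted p = 0.0476). Without the block its edgeR adjusted p was 0.0915 to 0.210 when any 1 of the 8 line libraries was left out. That call therefore needs all 8. Fits on all libraries also called it with the block (edgeR adjusted p = 0.00431) and by DESeq2 (adjusted p = 4.82e-08).

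Solyc07g007040 on chromosome 7 had 42.6, 39.9, 50.7 and 57.3 CPM in CHI9, against 11.5, 14.7, 11.2 and 13.5 CPM in CHI4, and 96.9, 99.8, 81.4 and 114 CPM in af. The 3 genotypes did not overlap, with af highest and CHI4 lowest. It was 3.75-fold higher in CHI9 (log2 difference 1.91, SE 0.165, edgeR adjusted p = 5.76e-06), the smallest p of the comparison, and it was called in each of the 8 fits that left out 1 line library.

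Solyc06g073500 on chromosome 6 had 1.44, 1.53, 1.61 and 2.55 CPM in CHI9, against 9.40, 10.5, 4.17 and 10.1 CPM in CHI4, and 14.4, 11.97, 10.2 and 15.7 CPM in af. CHI9 was lower than both other genotypes, and CHI4 replicate 3 lay nearest to it. The log2 difference was -2.24 (SE 0.333, edgeR adjusted p = 0.00437), and the gene was called in all 8 fits that left out 1 line library.

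Solyc03g044930 on chromosome 3 had 92.5, 80.7, 101 and 92.8 CPM in CHI9, against 557, 126, 394 and 488 CPM in CHI4, and 30.2, 30.9, 28.6 and 20.5 CPM in af. CHI4 replicate 2 was far below the other CHI4 libraries and still above all of CHI9. The log2 difference was -2.09 (SE 0.337), with an edgeR adjusted p of 0.0458 that became 0.172 with the block. It was called in 1 of the 8 fits that left out a line library, the one without CHI4 replicate 2, and its adjusted p in the 8 fits reached 0.182.

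**Figure D4:**
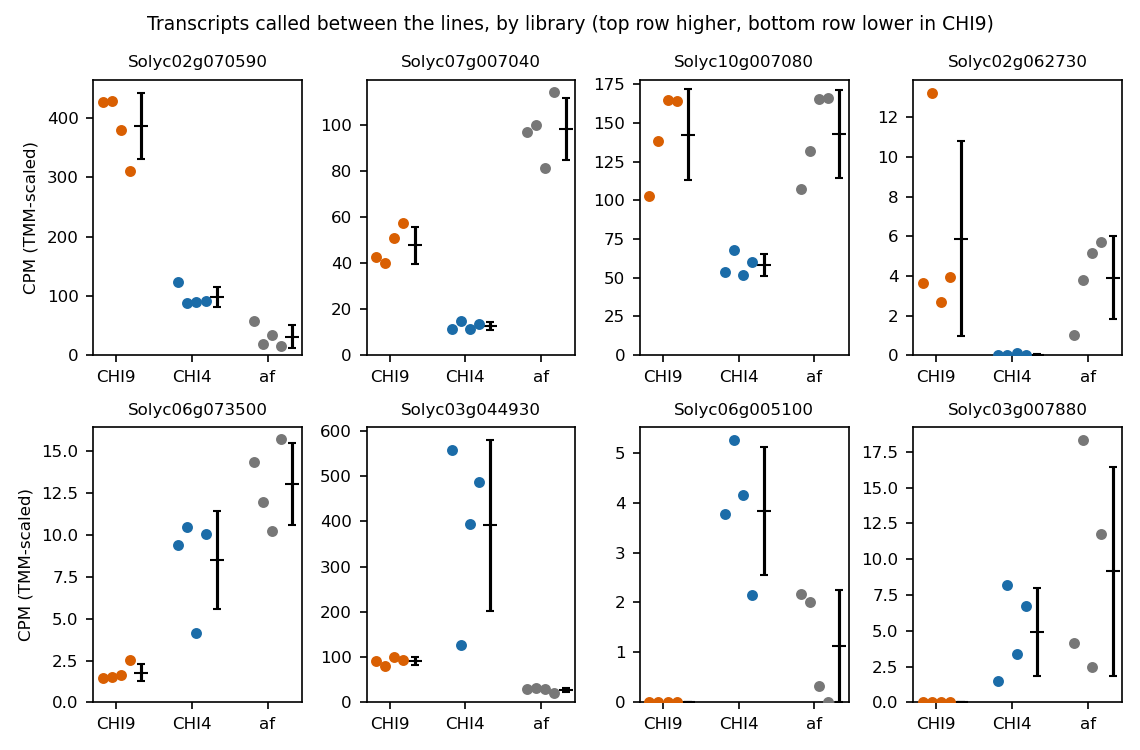
CPM (TMM-scaled, linear axes from 0) of 8 called genes in the 4 libraries of CHI9, CHI4 and af, with the mean and SD beside the points; the upper 4 were higher and the lower 4 lower in CHI9. In each panel the CHI9 points and the CHI4 points do not overlap, while af lies at the CHI9 level, at the CHI4 level, between the lines or outside both.

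Of the called genes 3 were close to absent from one of the lines, and were chosen for this after their values were seen. Solyc06g005100 had 0 counts in each CHI9 library, against 3.76, 5.24, 4.15 and 2.15 CPM in CHI4 and 2.16, 2.02, 0.323 and 0 CPM in af. With a floor of 3 counts over the 4 CHI9 libraries it was at least 157-fold lower in CHI9 (edgeR adjusted p = 0.0316). The call held in 1 of the 8 fits that left out a line library, the one without CHI4 replicate 4, with an adjusted p of up to 0.120 in the 8 fits. Those fits had no block. With all libraries the gene was also called with the block (edgeR adjusted p = 0.00545) and by DESeq2 (adjusted p = 3.03e-08). It was the only gene with 0 counts in one line and at least 1 CPM in every library of the other, and at 0.5 CPM there were 2 such genes.

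Solyc03g007880 had 3 counts in the 4 CHI9 libraries together, against 1.47, 8.18, 3.36 and 6.75 CPM in CHI4 and 2.49 to 18.3 CPM in af. Solyc02g062730 went the other way, with 3.65, 13.2, 2.70 and 3.95 CPM in CHI9, against 0, 0, 0.0902 and 0 CPM in CHI4, and 1.01, 3.78, 5.14 and 5.72 CPM in af. Its CHI4 value rested on 4 counts, all in replicate 3, so these 3 genes were each detected in af and in one line and at or near 0 in the other.

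A run of neighbouring loci on chromosome 2 had higher levels in CHI9. From Solyc02g070590 to Solyc02g070680 there are 10 gene models in the files, and 9 were tested, since Solyc02g070620 had 12 counts in all. All 9 had a log2 difference above 0, with a median of 1.29. The lowest was 0.93. The highest, 2.98, was that of Solyc02g070660, which averaged 0.832 CPM over the lines, had a 95% interval of -0.35 to 6.31 and moved between 1.44 and 7.05 when 1 line library was left out. Of them 3 were called without the block, 7 with it and 8 by DESeq2, beside 0.0928%, 0.196% and 0.466% of all genes tested. In 7 of the 9 every CHI9 library lay above every CHI4 library, beside 1.36% of all genes. The stretch was chosen after the called genes were seen, so these counts describe it. Whether these loci overlap or share sequence was not tested.

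Within the stretch, Solyc02g070600 had 52.9, 70.9, 37.5 and 62.4 CPM in CHI9, against 13.5, 17.1, 10.5 and 19.2 CPM in CHI4 (log2 difference 1.89, edgeR adjusted p = 0.000435). Solyc02g070670 had 101, 118, 133 and 109 CPM in CHI9, against 53.2, 67.7, 53.7 and 55.8 CPM in CHI4 (log2 difference 1.00, edgeR adjusted p = 0.00717). Both separated the lines fully, like Solyc02g070590. Solyc02g070630 had 71.6, 90.1, 64.6 and 41.8 CPM in CHI9, against 24.1, 28.4, 28.9 and 28.4 CPM in CHI4. Solyc02g070640 had 47.6, 44.005, 35.4 and 32.8 CPM in CHI9, against 20.02, 19.99, 18.8 and 20.2 CPM in CHI4. Solyc02g070650 had 42.6, 39.8, 26.2 and 27.5 CPM in CHI9, against 15.4, 15.2, 11.8 and 13.02 CPM in CHI4. These 3 were called with the block and not without it, with edgeR adjusted p = 0.0569, 0.102 and 0.0715 without it and 0.0153, 0.0152 and 0.00164 with it.

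Solyc02g070680, the last of the stretch, had 48.6, 48.1, 73.3 and 69.2 CPM in CHI9, against 32.7, 23.6, 34.1 and 35.6 CPM in CHI4 (log2 difference 0.93, edgeR adjusted p = 0.0746, and 0.0119 with the block). Solyc02g070610 had 2.96, 13.2, 10.6 and 11.998 CPM in CHI9, against 2.84, 2.87, 3.92 and 2.32 CPM in CHI4. In it CHI9 replicate 1 lay at the CHI4 level and the other 3 CHI9 libraries above it. Solyc02g070660 was low in both lines, with 4.43, 0, 0.790 and 0.678 CPM in CHI9, against 0, 0.740, 0.0225 and 0 CPM in CHI4. CHI9 replicate 1 held the highest value, and CHI9 replicate 2 and CHI4 replicates 1 and 4 had 0 counts.

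The genes beside the stretch were set against it. The ends of the stretch were placed with these values known, so a step at its ends follows in part from that choice. The 8 tested genes before it had log2 differences of -0.11 to 0.31. The 8 tested genes after it had -1.49 to 1.77, and 4 of them had at least 5 CPM. One of these, Solyc02g070810, had a log2 difference of 0.57 with a 95% interval of -0.08 to 1.22, which takes in the 0.93 of Solyc02g070680 inside the stretch. Of the 16 genes 0 were called with or without the block, beside 0.0928% and 0.196% of all genes tested. In 15199 windows of 10 consecutive tested genes with at least 1 CPM, the highest median log2 difference was 1.15, in a window that overlapped the stretch. Since 8 genes of the stretch reached 1 CPM, such a window also holds genes beside it. The highest in windows that did not overlap it was 0.69, and the lowest of all was -0.50. The af mean was below both lines in 6 of the 9 genes and nearer to CHI4 than to CHI9 in 7. Without CHI4 replicate 1 the called count of the stretch was 1, and without the 3 libraries that stood apart it was 2.

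**Figure D5:**
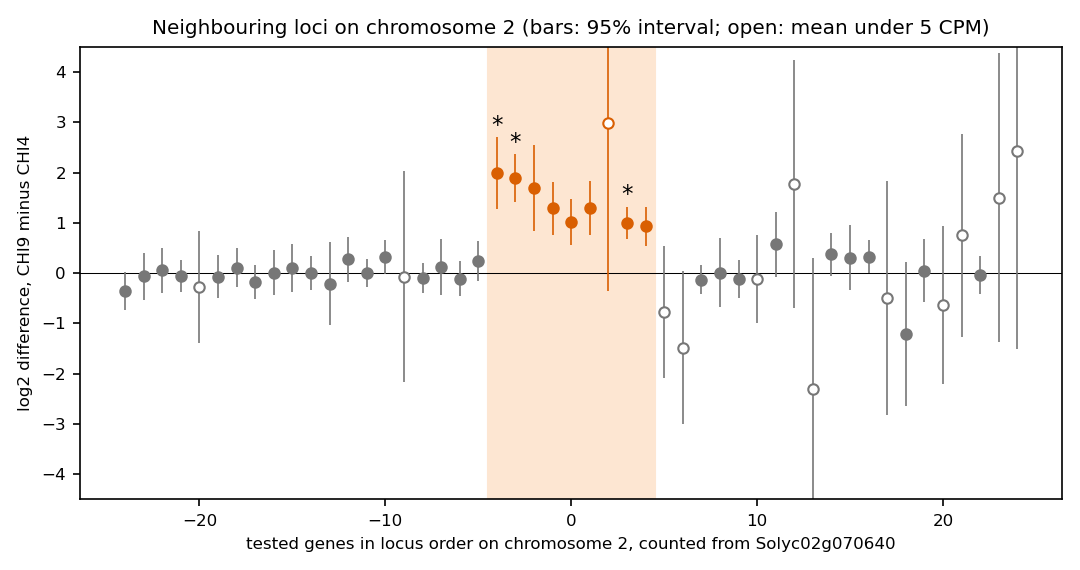
Log2 difference, CHI9 minus CHI4, with its 95% interval for tested genes in locus order on chromosome 2, counted from Solyc02g070640; the shaded stretch holds 9 tested genes, open points have a mean under 5 CPM and stars mark genes called without the block. The well-measured genes step up to 0.93 or more inside the stretch and lie near 0 before it.

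A second, smaller neighbourhood was a pair on chromosome 10, also chosen after its values were seen. Solyc10g007080 had 103, 139, 165 and 164 CPM in CHI9, against 54.03, 67.7, 51.8 and 59.9 CPM in CHI4, and 107, 132, 165 and 166 CPM in af. Solyc10g007090 had 16.2, 21.9, 34.2 and 49.5 CPM in CHI9, against 7.68, 9.41, 6.20 and 12.2 CPM in CHI4, and 16.1, 31.9, 42.5 and 67.8 CPM in af. In both, every CHI9 library lay above every CHI4 library and the af range overlapped that of CHI9. Their log2 differences were 1.29 (edgeR adjusted p = 0.00156) for the first and 1.78 for the second, where the adjusted p was 0.326 without the block and 0.00140 with it. Without the block, 0 runs of at least 3 neighbouring genes were called in one direction. With the block there was 1 such run, Solyc02g070630 to Solyc02g070650, and by DESeq2 1.

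At the genes called between the lines, af sided with neither line throughout. Of the 11 genes higher in CHI9, the af mean lay above both lines in 2, between them in 5 and below both in 4, and was nearer to CHI9 in 6 and to CHI4 in 5. Of the 6 genes lower in CHI9, af lay above both in 2, between in 3 and below both in 1, and was nearer to CHI4 in 5. Over all 18326 tested genes the af mean lay above both lines in 8291, between them in 3204 and below both in 6831, and was nearer to CHI9 in 9003 and to CHI4 in 9323. The af libraries took no part in the difference between the lines but share its estimate of the spread.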

How the data were processed

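Per the labels, RNA of type VI gland cells was purified with RNeasy columns and turned into TruSeq RNA libraries. Per the submitters' processing notes, Trimmomatic, TopHat2, SAMtools and HTSeq were used; the sources used here do not give versions, genome build, annotation or strand setting, so overlapping and antisense genes cannot be separated. The authors deposited raw counts per gene model and lane, without normalization. Summary entries that name no gene were dropped (reads in no gene were 8.49% to 12.2% of a line library, ambiguous reads 5.13% to 6.68%) and the 2 lanes of a library summed. Lanes differed by a chi-square per degree of freedom of 1.87 to 2.21, and 5.69 in CHI4 replicate 4. Whether a count is a read or a read pair is not recorded.

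Counts of all 12 libraries were fitted in 1 edgeR 4.0.16 model (R 4.3.3) with 3 genotypes, filterByExpr, TMM scaling and robust quasi-likelihood tests; p-values are Benjamini-Hochberg over 18326 genes with a threshold of 0.05. CPM are TMM-scaled. Alternatives used DESeq2 1.42.0, limma 3.58.1 and the settings of the closing section. The labels call the collections independent, and their sampling time pairs the lines: deviations from line means correlated at 0.0352 to 0.180 within a collection (median 0.0975) and at -0.115 to 0.0653 between collections (median -0.0325). The design has no block; its effect stands beside results it changes.

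Lists, members and the rule for named genes were chosen with earlier results of these data known. The rule takes CHI1, called list loci, up to 3 further loci of a list with the highest CPM, and the 2 largest rises and falls without a name at 5 CPM or more without overlap; other genes are given for their place or pattern. Of the 177 list loci, 109 had a name found in RefSeq's SLM_r2.1 table, 95 of them on the chromosome of the locus number, and 0 locus numbers occur there.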

Additional observations from a re-analysis of the deposited data

Results flagged for a closer look

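The groups of 4 libraries examined numbered 120, and 12 had 1 library far from the other 3 for the group's range; chance alone gives about 1 in 20. In CHI9, replicate 1 was high for RBCS (Solyc03g034220) at 290.7 CPM, against 252 to 258 CPM in the other 3, and low for the ASR locus Solyc04g071620 at 856 CPM, against 1020 to 1051 CPM. Replicate 4 was high for Solyc06g073500 at 2.55 CPM, against 1.44 to 1.61 CPM, and replicate 2, the shallowest library, was high for Solyc02g062730 at 13.2 CPM, against 2.70 to 3.95 CPM.

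In CHI4, replicate 1 was high for Solyc02g070590 at 123 CPM, against 87.2 to 91.9 CPM in the other 3, and low for Solyc02g070630 at 24.1 CPM, against 28.4 to 28.9 CPM. Replicate 2 was high for CER6 (Solyc02g085870) at 66.6 CPM, against 40.5 to 42.2 CPM, and for Solyc02g070660 at 0.740 CPM, against 0 to 0.0225 CPM. Replicate 3 was low for Solyc06g073500 at 4.17 CPM, against 9.40 to 10.5 CPM, and was the only one with counts of Solyc02g062730, at 0.0902 CPM. Replicate 4 was high for RBCS (Solyc03g034220) at 293.9 CPM, against 248 to 252 CPM, and its lanes differed by a chi-square per degree of freedom of 5.69, against 2.03 to 2.07 in the other CHI4 libraries.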

How the results depend on the processing

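The counts of genes higher and lower in CHI9 were 20 and 16 with the replicate block, 18 and 15 with the block and only the 8 line libraries, 7 and 2 by limma-voom, 50 and 46 by DESeq2, and 6 and 5 without collection 2; without each replicate in turn they were 6 to 8 and 3 to 7. Under the other settings both counts stayed within 1.5 times, but the genes called were not always the same. With only the 8 line libraries 18 genes were called, and 11 of the 17 genes of the main fit were among them. By limma-voom 7 of the 17 stayed called, and without each replicate in turn 8 to 11 did. Called genes in the chromosome 2 stretch numbered 7 with the block, 6 with only the line libraries, 7 with both, 6 with no low-count filter, 5 with lane 2 alone, 8 by DESeq2 and 1 to 3 without each replicate. Genes at 0 in one line were 2 at 0.5 CPM. Runs of at least 3 called neighbours numbered 1 with the block and 1 by DESeq2, against 0 without the block; at 2 consecutive genes there were 1 without the block, 4 with it and 3 by DESeq2. The causes were not tested. The block ended the call of Solyc03g044930 and that of 1 other gene, and gave calls to genes named in the report. Shares of counts in the lists moved by less than 1 SD with another denominator.

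Log2 differences that changed sign belonged to loci not called in any of these settings. In fits that leave out line libraries, the lowest and highest were -0.50 and 0.042 for CHI1 (Solyc05g010320), where the highest leaves out the 3 libraries that stood apart, -0.34 and 0.014 for CHS1 (Solyc09g091510), -0.40 and 0.014 for CHS2 (Solyc05g053550), -0.15 and 0.063 for HDR (Solyc01g109300), -0.13 and 0.16 for DXS2 (Solyc11g010850), -0.20 and 0.032 for HDS (Solyc11g069380), -0.026 and 0.10 for SQS (Solyc01g110290), and -0.065 and 0.11 for TPS12 (Solyc06g059930). They were -0.076 and 0.19 for the TPS19/20 locus (Solyc08g005670), -1.11 and 0.31 for MIXTA-like (Solyc02g088190), -0.46 and 0.30 for ASAT2 (Solyc04g012020), -0.30 and 0.21 for PI-I (Solyc09g084480), -0.48 and 0.17 for ADH2 (Solyc06g059740), -0.080 and 0.075 for RBCS (Solyc03g034220), -0.15 and 0.13 for CAB (Solyc02g070940) and -0.11 and 0.058 for SOD (Solyc01g067740).

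With the block the log2 difference was -0.013 for DXS2 and -0.018 for PI-I, with only the line libraries and the block -0.0079 for DXS2, and by limma-voom -0.013 for DXS2. With lane 1 alone it was 0.019 for HDR, -0.0022 for TPS12, -0.017 for PI-I and -0.0037 for RBCS. With lane 2 alone it was -0.0010 for SQS, and with lane 2 alone for CHI4 replicate 4 -0.010 for SQS. Without collection 2 it was -0.043 for DXS2, -0.020 for SQS, -0.045 for TPS12 and -0.070 for the TPS19/20 locus.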
